A study of Arabidopsis thaliana with 36 samples.

Results

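The 10 genes described here are 2 heat shock transcription factor genes, 3 large chaperone genes, 1 co-chaperone gene and 4 small heat shock protein genes of Arabidopsis thaliana, taken by locus from a written list. They are HSFA2 (AT2G26150), HSFB1 (AT4G36990), HSP90.1 (AT5G52640), HSP70 (AT3G12580), HSP101 (AT1G74310), ROF2 (AT5G48570), HSP17.6II (AT5G12020), HSP18.2 (AT5G59720), HSP21 (AT4G27670) and HSP23.6 (AT4G25200). All 10 were among the 32833 loci counted in 36 libraries, which fall into 12 groups of 3. Seedlings were grown on agar with 25 mM sucrose at 22 °C with 16 h of light, moved to liquid medium at 6 days and treated after 1 day. The wild type Col, the sugar transporter mutant stp1/4/13 (STP1, STP4 and STP13 are hexose transporters) and fls2, a mutant of the flagellin receptor FLS2, were kept in 25 mM sucrose and sampled 2, 10 and 24 h after 1 µM flg22, a peptide of bacterial flagellin. The remaining 3 groups were Col seedlings at 24 h titled Suc_0mM, Suc_25mM and 2DG_1mM, where 2DG is 2-deoxy-d-glucose, a glucose analogue, given at 1 mM in medium without sucrose. Neither mutant is labelled with a group that lacked flg22, and fls2, which cannot sense the peptide, is the background here. A difference of Col or stp1/4/13 from fls2, or of stp1/4/13 from Col, therefore includes any effect of the genotype without flg22. Libraries were made from 500 ng of total RNA of whole plants, in which fewer cells of a type and less RNA per cell cannot be told apart.

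Heat shock proteins are chaperones that bind unfolded proteins, and their genes are switched on by heat shock factors, which bind heat shock elements, inverted repeats of the bases GAA, in the promoters of their targets. HSFA2 is a heat-induced factor that prolongs the heat response, whereas HSFB1, also called TBF1, is a class B factor known from plant immunity as a regulator of the switch from growth to defence. HSP90 and HSP70 proteins fold client proteins with the help of co-chaperones, HSP101 pulls proteins out of aggregates, and small heat shock proteins hold unfolding proteins until they are refolded.

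The sequences below show where such elements lie before these genes, since heat shock factors act through them. They were read from the RefSeq annotation on TAIR10.1, whereas the submitters' notes name TAIR10, and the count tables hold no coordinates. The motif of 2 units was GAANNTTC, which reads the same on both strands, and that of 3 units was GAANNTTCNNGAA or its other strand TTCNNGAANNTTC, each of which holds the 2-unit motif. In the 250 bases before the annotated gene start, HSFA2 and HSP21 held the 2-unit motif, 2 of 10 against 9.55% of 27443 protein-coding genes, and HSFA2 alone held the 3-unit motif, against 0.386%. After this search had matched only 2 members, the 500 bases before the coding start were searched as well, a window chosen after that result was seen, which can take in transcribed sequence. There, 7 of 10 members held the 2-unit motif against 21.0% of genes, and 4 of 10 the 3-unit motif against 1.20%. The 4 sites with 3 units are given with 2 flanking bases on each side, motif in capitals, 5′ to 3′ on the strand of the gene, and the last line is the whole 250-base window of HSFA2.
HSP90.1, chr5:21352260-21352276: aaGAACTTTCTGGAAtt
HSP70, chr3:3993852-3993868: gtGAACGTTCTCGAAag
HSFA2, chr2:11135534-11135550: acGAAGTTTCTGGAAca
HSP18.2, chr5:24062394-24062410: acGAAACTTCCTGAAat
HSFA2, chr2:11135374-11135623: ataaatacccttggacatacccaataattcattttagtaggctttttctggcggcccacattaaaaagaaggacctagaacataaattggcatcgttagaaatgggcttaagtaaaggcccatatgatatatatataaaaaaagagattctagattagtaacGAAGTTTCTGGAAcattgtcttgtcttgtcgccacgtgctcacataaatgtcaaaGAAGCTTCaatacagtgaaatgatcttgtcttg
The 3-unit sites began 295 bases (HSP90.1), 177 bases (HSP70), 320 bases (HSFA2) and 236 bases (HSP18.2) before the coding start. The sites of HSP70 and HSP18.2 lie behind the annotated gene start, which is 197 and 309 bases before the coding start in these genes. HSP101, HSP21 and HSP23.6 held the 2-unit motif only. For HSFB1, ROF2 and HSP17.6II these letters are not in this window. The other order of 2 units, TTCNNGAA, was not searched by itself, so these counts do not cover it. The coding start lies 483 bases after the gene start in HSFB1 and 507 in HSP101, so this window hardly covers sequence before their gene starts. In HSP90.1 the annotated gene start is the coding start (0 bases apart), so its 250-base window can take in transcribed sequence. A match is a description of the sequence and was not tested as a binding site.

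Library totals were 15994904 to 20111338 counts at 2 h and 24 h, 9462067 to 11309472 at 10 h and 8054500 to 12881741 in the sucrose and 2DG groups. The 10 h libraries were deposited in one table with the sucrose and 2DG libraries and those of 2 h and 24 h in another, so levels at 10 h are set against the other times without a test. In 6 libraries Suc_25mM and 2DG_1mM are exchanged between title and treatment label, and groups here follow the titles, which the column headers match. FLS2 lay at a mean of 0.149 to 0.165 CPM (counts of a locus scaled by the total count of its library) in fls2 against 22.1 to 44.0 CPM in Col after flg22. STP13 lay at 7.56 to 14.5 CPM in stp1/4/13 against 98.7 to 323 CPM in Col, but at 5.59 to 28.4 CPM in fls2 as well. STP4 lay at 51.0 to 84.1 CPM in stp1/4/13, 190 to 380 CPM in Col and 53.9 to 63.4 CPM in fls2. STP1 lay at 5.81 to 11.4 CPM in stp1/4/13, 157 to 312 CPM in Col and 85.4 to 97.3 CPM in fls2. Library 2 of Suc_0mM, of Suc_25mM and of fls2 at 24 h had the lowest CPM of its group in all 10 members, and results that rest on these libraries are given below also without them.

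Across the flg22 libraries the level of most members went with the time of sampling, and the 10 h libraries were low. HSFA2 lay between 25.3 and 114 CPM at 2 h, between 1.41 and 5.67 CPM at 10 h and between 32.4 and 222 CPM at 24 h. For 6 of 10 members every one of the 9 libraries at 10 h was below every one of the 18 libraries at 2 h and 24 h. The exceptions were HSFB1, HSP18.2, HSP21 and HSP23.6. The share of all genes with this order was not counted, so whether 6 of 10 is unusual is not known. In the same table HSP90.1 lay between 67.8 and 370 CPM at 10 h and between 41.0 and 2952 CPM in the sucrose and 2DG libraries. The sampling time and anything else that set the 10 h libraries apart from the others cannot be told apart.

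In the order of group means HSFA2 was highest in Col at 24 h (143 ± 70.4 CPM, SD, n = 3) and lowest in stp1/4/13 at 10 h (2.02 ± 0.75 CPM). Of its 11 neighbouring pairs of groups, 10 overlapped, and the gap lay between fls2 at 2 h (mean 38.2 CPM, lowest library 25.3) and Col at 10 h (mean 4.77 CPM, highest library 5.67). HSFB1 followed another order, with its highest mean in Col at 2 h (1809 ± 448 CPM) and its lowest in fls2 at 10 h (144 ± 23.2 CPM). Its mean was 12.5 times as high in the first of these groups as in the second, the smallest such ratio of the 10 members. The ratio was 60.3 for HSP90.1, 133 for ROF2, 188 for HSP17.6II, 318 for HSP23.6 and 401 for HSP21. Between 8 and 11 of the 11 neighbouring pairs overlapped for each member, so most steps in the order were within the spread between libraries.

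**Figure D1:**
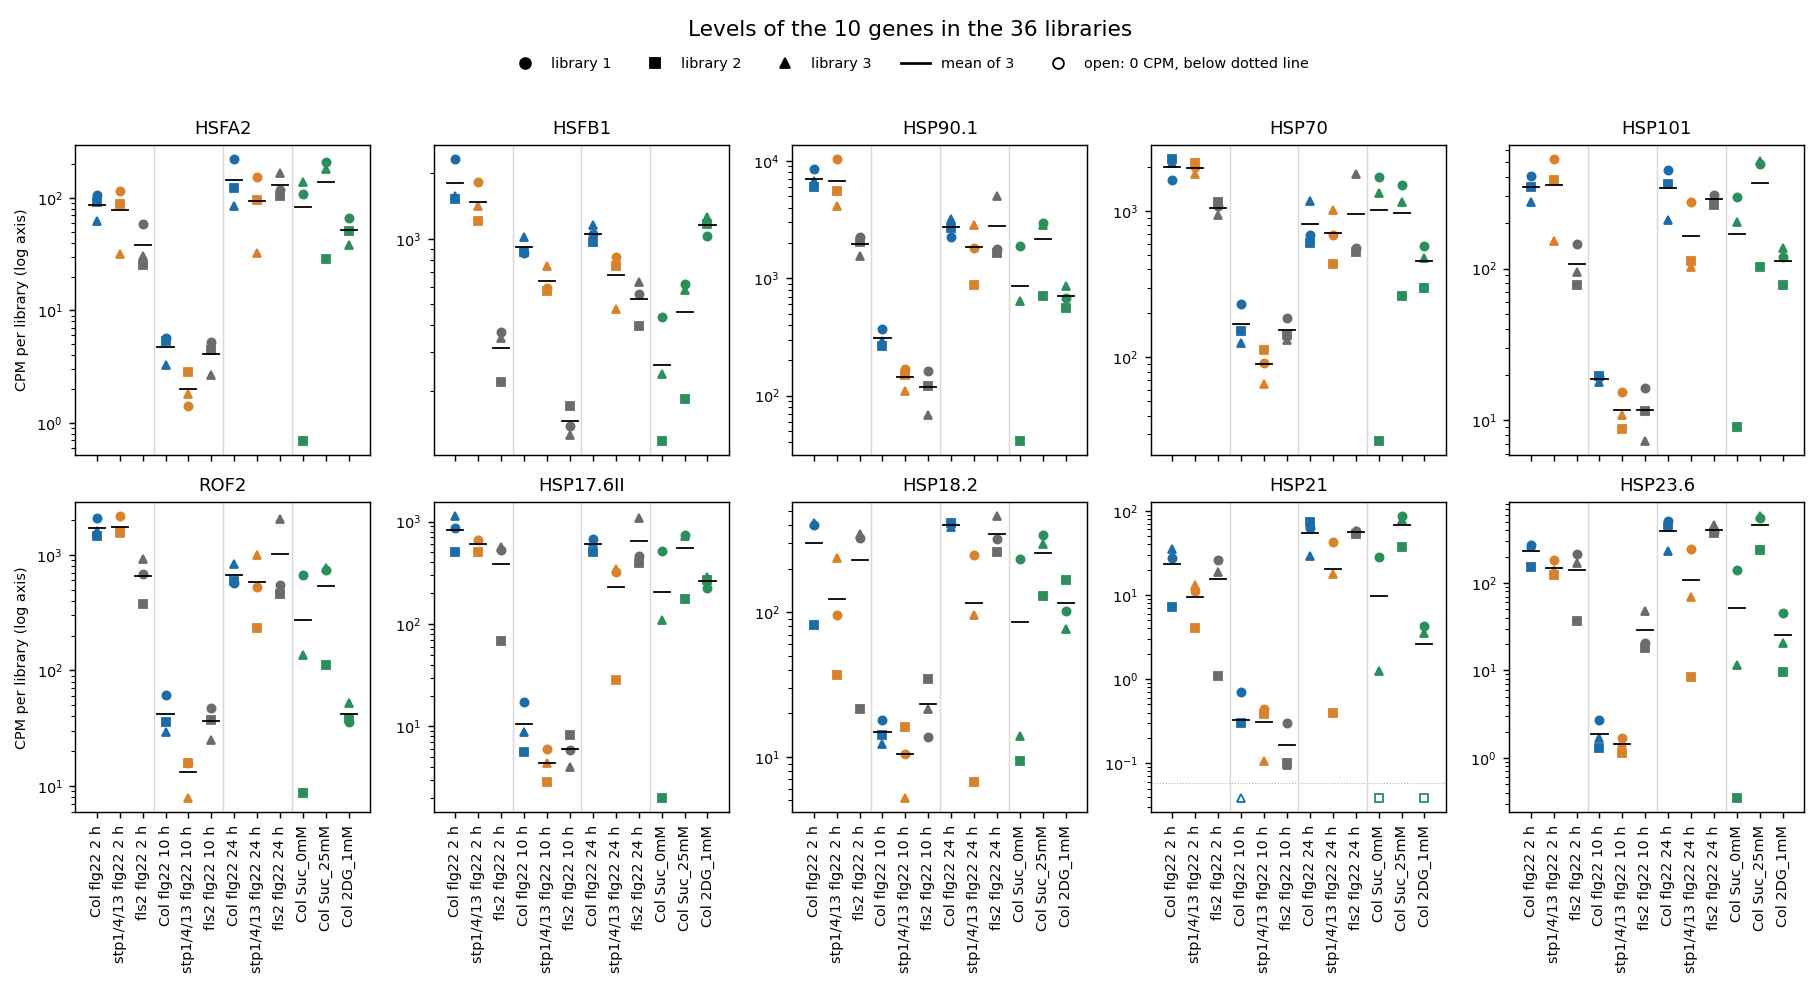
CPM of each gene (log axis) in the 36 libraries, 1 panel per gene, with groups on the horizontal axis, a symbol for each library number and a bar for the mean of 3. HSFB1 reaches at most 371 CPM in fls2 at 2 h and 10 h and at least 577 CPM in Col and stp1/4/13 at those times, whereas HSFA2 reaches at most 5.67 CPM in the 9 libraries of 10 h.

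At 2 h after flg22, HSFB1, HSP90.1, HSP101, ROF2 and HSP70 were higher in Col than in fls2, and none of the 4 small heat shock protein genes passed the test. In edgeR's quasi-likelihood test with Benjamini-Hochberg adjustment over all genes, 5 of 10 members passed at 0.05, all higher, where 34.8% of all genes tested passed in either direction. HSFB1 had 2325, 1523 and 1580 CPM in libraries 1 to 3 of Col and 371, 220 and 351 CPM in those of fls2. The groups did not overlap, and the difference was 2.70 ± 0.27 log2 units (SE; edgeR adjusted p = 3.46e-07). HSP90.1, a cytosolic HSP90 induced by heat, had 8476, 5968 and 6777 CPM in Col and 2260, 2041 and 1563 CPM in fls2. Every Col library was above every fls2 library, by 2.00 ± 0.44 log2 units (edgeR adjusted p = 0.00168).

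HSP101 had 406, 345 and 276 CPM in Col against 146, 78.1 and 95.2 CPM in fls2, a difference of 1.85 ± 0.44 log2 units (edgeR adjusted p = 0.00267). HSP101 overlaps AT1G74300 on the opposite strand by 101 bases, and the strand setting used in counting is not known here. ROF2, a peptidyl-prolyl isomerase that acts as a co-chaperone of HSP90, had 2068, 1441 and 1599 CPM in Col and 674, 375 and 927 CPM in fls2, 1.56 ± 0.49 log2 units apart (edgeR adjusted p = 0.0195). HSP70 had 1635, 2268 and 2139 CPM in Col and 1085, 1150 and 935 CPM in fls2, 1.08 ± 0.38 log2 units apart (edgeR adjusted p = 0.0361). For these 3 genes too the groups did not overlap. The calls of HSP70 and ROF2 were the least secure, since each was lost without 1 of several libraries. HSP70 passed in 1 of 6 fits with a library left out, with an adjusted p of up to 0.118, and ROF2 in 3 of 6, with an adjusted p of up to 0.0973 without library 2 of fls2, where 3 members passed. With all libraries numbered 2 left out, HSP101 (1.71 log2 units, edgeR adjusted p = 0.0852), HSP70 and ROF2 did not pass, whereas HSP17.6II did (1.098 log2 units, adjusted p = 0.0356).

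HSFA2 had 106, 92.6 and 62.5 CPM in Col and 58.7, 25.3 and 30.4 CPM in fls2 at 2 h. The groups did not overlap, but the difference of 1.36 ± 0.52 log2 units missed the threshold (edgeR adjusted p = 0.0514) and passed it without library 1 of fls2 (1.78, adjusted p = 0.0320), without the filter on low counts (0.0326) and on the compared groups alone (0.00216). The small heat shock protein genes differed by 0.60 to 1.34 log2 units with standard errors of 0.68 to 0.93. HSP17.6II, which encodes a cytosolic class II protein, had 864, 506 and 1126 CPM in Col and 523, 68.3 and 559 CPM in fls2. The groups overlapped, and library 2 of fls2 was low.

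**Figure D2:**
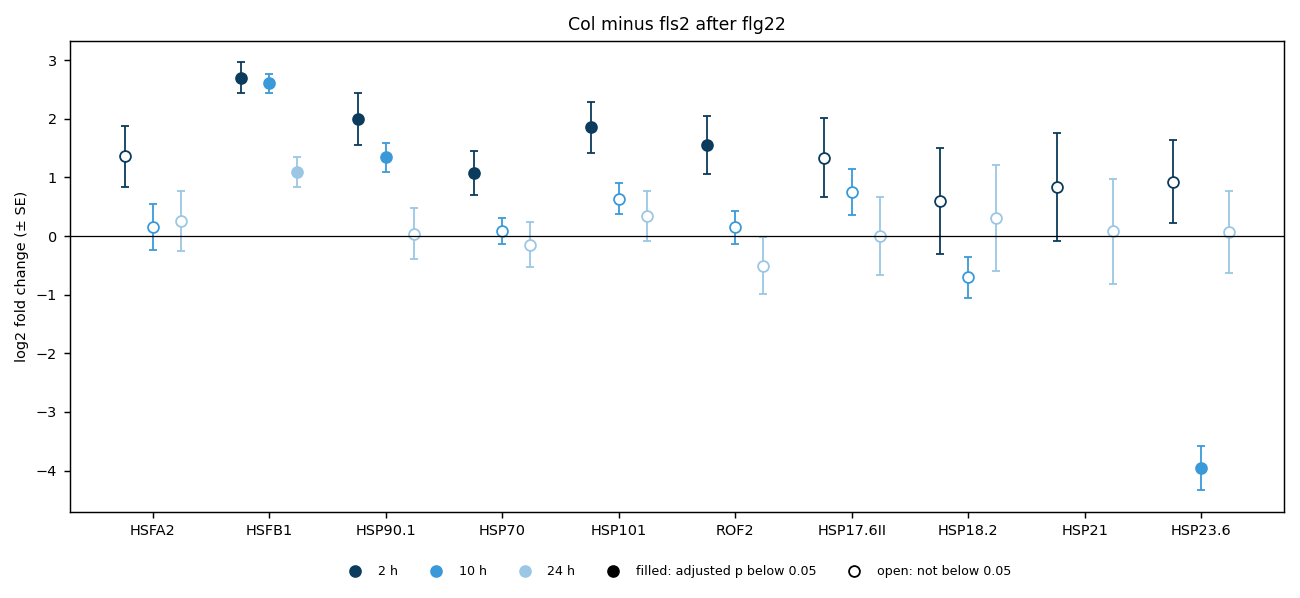
Log2 fold change of Col against fls2 with its standard error for each gene at 2, 10 and 24 h (n = 3 libraries per group; filled points passed edgeR's test). HSFB1 is above 0 at all 3 times, with 2.70 at 2 h and 1.09 at 24 h, and HSP23.6 at 10 h lies at -3.96.

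Of 70 other genes of the heat response, listed by family, 68 were tested at 2 h. In Col 19 were higher and 3 lower than in fls2, with a median of 0.56 log2 units against -0.02 over all genes. These counts and those per family are to be read against the 34.8% of all genes that passed in either direction. Among the heat shock factors, 6 of 17 were higher, HSFA8 by 1.91 ± 0.42 and HSFA4A by 1.84 ± 0.32 log2 units. Of the co-chaperones, 6 of 10 were higher, among them FES1A, an HSP70-binding protein, by 2.00 ± 0.41 and HOP3, which bridges HSP70 and HSP90, by 1.81 ± 0.36 log2 units. In the list of the other HSP90, HSP100 and HSP60 genes, 0 of 11 were higher and 1 was lower, the chloroplast HSP100 gene CLPB3, by -0.71 ± 0.23 log2 units. Of the other small heat shock protein genes, 4 of 14 were higher and 1 was lower. Marker levels moved with these groups. Summed over 5 green tissue markers, Col had 4085 to 7127 CPM and fls2 14325 to 17204 CPM, and over 5 seed maturation markers Col had 24.2 to 26.8 CPM and fls2 0.226 to 0.602 CPM. Nearly all of the latter was EM6 (24.2 to 26.8 CPM in Col), while OLEO1, CRC and HSFA9 were at 0 in Col. The part of these markers in the differences was not tested.

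At 10 h, HSFB1 and HSP90.1 were still higher in Col than in fls2, and HSP23.6, which encodes a mitochondrial small heat shock protein, was lower. Of the 9 members tested, 3 passed, where 51.3% of all genes did so. HSP21, which encodes the chloroplast small heat shock protein, was left out by the filter on low counts, with 0 to 0.696 CPM over the 9 libraries at 10 h. A count of 0, as in library 3 of Col, allows up to 0.298 CPM (3 counts, counting error only). HSFB1 had 856, 871 and 1016 CPM in Col and 138, 170 and 125 CPM in fls2, 2.61 ± 0.16 log2 units apart (edgeR adjusted p = 9.97e-10). HSP90.1 had 370, 266 and 290 CPM in Col and 163, 122 and 67.8 CPM in fls2, 1.34 ± 0.25 log2 units apart (edgeR adjusted p = 0.000204). Neither pair of groups overlapped. Without library 1 of fls2, 5 members passed.

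HSP23.6 had 2.69, 1.29 and 1.69 CPM in Col, 1.68, 1.14 and 1.48 CPM in stp1/4/13 and 20.5, 18.204 and 48.0 CPM in fls2 at 10 h. All 3 fls2 libraries were above the other 6, and Col differed from fls2 by -3.96 ± 0.37 log2 units (edgeR adjusted p = 1.44e-07). Of the other small heat shock protein genes, 5 of 12 tested were higher in Col and 3 were lower. AT5G47600, annotated as an HSP20-like chaperone, was lower by -3.21 ± 0.43 log2 units and AT2G29500, annotated likewise, was higher by 1.72 ± 0.25. All 11 of the other HSP90, HSP100 and HSP60 genes were lower in Col, with a median of -1.11 log2 units, led by the chloroplast HSP90.5 at -1.84 ± 0.14 and the mitochondrial HSP60-2 at -1.55 ± 0.17. HSP90.1 and these genes therefore stood on opposite sides of 0 in the same comparison. Of the 64 listed genes tested at 10 h, 19 were higher and 22 lower in Col than in fls2. Of all genes 51.3% passed in either direction. Root marker sums at 10 h were 2.59 to 7.05 CPM in Col and 109 to 156 CPM in fls2, and their part in these differences was not tested.

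At 24 h, HSFB1 was the 1 of 10 members that differed between Col and fls2, where 18.6% of all genes did so. It had 1054, 964 and 1153 CPM in Col and 555, 396 and 631 CPM in fls2, which did not overlap, 1.09 ± 0.25 log2 units apart (edgeR adjusted p = 0.0055). HSP90.1 had 2270, 2679 and 3235 CPM in Col and 1775, 1635 and 5012 CPM in fls2, which overlapped, with a difference of 0.04 ± 0.43 log2 units. Library 3 of fls2 was the highest of its group in 8 of 10 members. Without all libraries numbered 2, HSFB1 no longer passed at 24 h (0.95 log2 units, edgeR adjusted p = 0.104). Green tissue marker sums at 24 h were 5169 to 10161 CPM in Col and 10477 to 13525 CPM in fls2, with 1 of 5 markers lower in Col. Root marker sums were 8.503 to 16.9 CPM in Col and 71.2 to 90.9 CPM in fls2, with 5 of 5 lower in Col, and the part of either list was not tested.

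Between 2 h and 24 h, HSP90.1, HSP70, HSFB1 and ROF2 fell in Col and in stp1/4/13, whereas HSFA2, HSP101 and HSFB1 rose in fls2. In Col 4 of 10 members passed, all lower, where 32.7% of all genes did so, and in stp1/4/13 5 of 10 passed, all lower, where 27.4% did. HSP101 was the additional gene in stp1/4/13, at -1.21 ± 0.43 log2 units (edgeR adjusted p = 0.0432), although its groups overlapped. That call was lost in 4 of 6 fits with 1 library left out, with -0.74 log2 units without library 1 at 2 h (edgeR adjusted p = 0.267), and on the compared groups alone (0.0893). In fls2 3 of 10 passed, all higher, where 19.8% of all genes did so. HSFA2 in fls2 had 58.7, 25.3 and 30.4 CPM at 2 h and 119, 105 and 166 CPM at 24 h, which did not overlap, 1.77 ± 0.53 log2 units apart (edgeR adjusted p = 0.0282). In Col HSFA2 had 222, 122 and 85.5 CPM at 24 h, which overlapped the 2 h values. HSP90.1 fell by 1.47 ± 0.44 log2 units in Col and by 1.97 ± 0.44 in stp1/4/13.

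The change over time itself differed between Col and fls2 for HSFB1 and HSP90.1. The interaction was -1.61 ± 0.36 log2 units for HSFB1 (edgeR adjusted p = 0.00712) and -1.96 ± 0.61 for HSP90.1 (edgeR adjusted p = 0.0476), so 2 of 10 members passed, where 10.5% of all genes did so. The HSFB1 interaction passed in 12 of 12 fits with 1 library left out and that of HSP90.1 in 2 of 12, those without library 1 or 2 of fls2 at 24 h. HSFA2 gave -1.10 ± 0.73 and did not pass. The calls over time in fls2 rested on single libraries, since between 0 and 2 members passed with 1 library left out, with 0 without library 2 at 2 h, library 3 at 2 h or library 1 at 24 h and 1 without library 2 at 24 h. In Col 1 member passed without library 1 at 2 h and 2 without library 1 at 24 h. In stp1/4/13 3 members passed without library 1 at 2 h or library 2 at 24 h. Without all libraries numbered 2, the count over time was 0 in Col, 3 in stp1/4/13 and 0 in fls2, and 0 for the interaction. Over all 21491 genes tested it was 2480, 2782, 0 and 479 in that order. Marker lists moved with these results. The 5 root markers were lower at 24 h than at 2 h in Col and in stp1/4/13, 0 of 5 passed in fls2, and 5 of 5 were lower in the Col and fls2 interaction, with a median of -2.77 log2 units. Of the green tissue markers 4 of 5 were higher in the interaction, with a median of 1.99, and EM6, the 1 seed maturation marker tested, was lower by -5.27. The part of these markers in the changes over time was not tested.

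**Figure D3:**
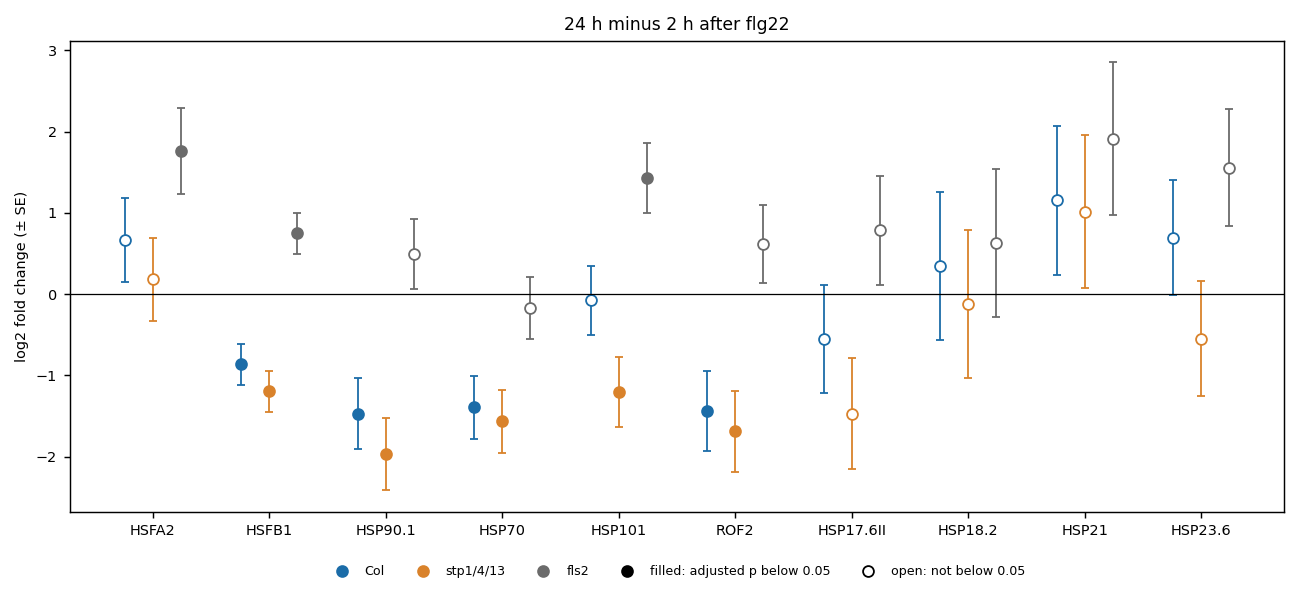
Log2 fold change of 24 h against 2 h after flg22 with its standard error for each gene in Col, stp1/4/13 and fls2 (n = 3 libraries per group; filled points passed edgeR's test). HSP90.1 lies at -1.47 in Col and -1.97 in stp1/4/13, while HSFA2 lies at 1.77 in fls2.

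The other genes of the heat response changed over time in both directions. In Col 7 of 68 were higher and 18 lower at 24 h, where 32.7% of all genes passed in either direction. In stp1/4/13 2 were higher and 19 lower, where 27.4% passed, and in fls2 12 were higher and 8 lower, where 19.8% passed. The cytosolic HSP90 gene HSP90.3 fell by 1.59 ± 0.46 log2 units in Col and HSP70-2 fell by 2.11 ± 0.42. HSFA3, a factor downstream of DREB2A, rose by 2.70 ± 0.58 log2 units in Col, 1.78 ± 0.59 in stp1/4/13 and 2.58 ± 0.58 in fls2.

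No member differed between stp1/4/13 and Col at 2 h, where 0.219% of all genes passed, and 0 of 10 had an unadjusted p under 0.05 (0 adjusted calls in DESeq2 as well). HSFA2 had 114, 88.2 and 31.8 CPM in stp1/4/13 at 2 h, which overlapped Col, with a difference of -0.17 ± 0.51 log2 units. The differences of the 10 members ran from -1.35 to 0.03 log2 units with standard errors of 0.25 to 0.94. Against fls2 at 2 h, 4 of 10 members were higher in stp1/4/13, where 25.6% of all genes passed. These were HSFB1 (2.38 ± 0.26 log2 units), HSP90.1 (1.91 ± 0.44), HSP101 (1.89 ± 0.44) and ROF2 (1.57 ± 0.49), and the comparisons share the fls2 libraries with those of Col. The ROF2 call was lost without library 1 of stp1/4/13 (edgeR adjusted p = 0.0992), library 1 of fls2 (0.0652) or library 2 of fls2 (0.117). ROF2 (0.0969) and HSP101 (0.113) were lost without all libraries numbered 2.

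At 10 h, ROF2, HSP90.1 and HSP70 were lower in stp1/4/13 than in Col, and all 9 members tested had a difference below 0. The median over all genes was -0.004 log2 units, and the share of all genes below 0 was not counted. Of the 9 members tested, 3 passed, where 12.5% of all genes did so. For these 3 the groups did not overlap. ROF2 had 61.0, 35.7 and 29.0 CPM in Col and 15.65, 15.90 and 7.82 CPM in stp1/4/13, -1.58 ± 0.30 log2 units apart (edgeR adjusted p = 0.00247). HSP90.1 had 170, 151 and 109 CPM in stp1/4/13, below the 266 to 370 CPM of Col, by -1.02 ± 0.24 log2 units (edgeR adjusted p = 0.0109). HSP70 had 230, 151 and 125 CPM in Col and 91.1, 113 and 66.2 CPM in stp1/4/13, -0.82 ± 0.22 log2 units apart (edgeR adjusted p = 0.0225). Without library 1 of Col, the highest of its group in 8 of 10 members, only ROF2 passed and HSP70 lay at -0.53 log2 units (edgeR adjusted p = 0.157). HSFA2 had 1.41, 2.86 and 1.80 CPM in stp1/4/13 against 5.67, 5.36 and 3.28 CPM in Col, which did not overlap and did not pass (edgeR adjusted p = 0.0844).

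Among the other heat response genes at 10 h, 2 of 64 were higher and 16 lower in stp1/4/13 than in Col. Of all genes 12.5% passed in either direction. Of the HSP90, HSP100 and HSP60 genes 8 of 11 were lower, HSP60-2 by -1.02 ± 0.18 log2 units, and of the small heat shock protein genes 4 of 12, HSP17.6A by -1.68 ± 0.52. HSFA7A was higher by 1.15 ± 0.17. Green tissue marker sums were 6061 to 8586 CPM in Col and 12191 to 15410 CPM in stp1/4/13, with 2 of 5 markers higher in stp1/4/13. Most of each sum was RBCS1A (4091 to 6670 CPM in Col, 9787 to 13182 CPM in stp1/4/13). LHCB1.1, LHCB2.1 and LHCB3 overlapped between the groups. The part of these markers was not tested. Against fls2 at 10 h, 5 of 9 members differed in stp1/4/13, where 52.2% of all genes did so. HSFB1 was higher by 2.18 ± 0.16 log2 units, while HSP23.6 (-4.27 ± 0.39), ROF2 (-1.44 ± 0.30), HSP18.2 (-1.10 ± 0.35) and HSP70 (-0.73 ± 0.22) were lower, with overlapping groups for HSP18.2, and without library 3 of stp1/4/13 the count was 3. Root marker sums were 2.92 to 16.7 CPM in stp1/4/13 and 109 to 156 CPM in fls2, with 5 of 5 markers lower in stp1/4/13, and their part was not tested.

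At 24 h no member passed between stp1/4/13 and Col, where 9.01% of all genes did so, or between stp1/4/13 and fls2, where 19.9% did. All 10 differences from Col were below 0, from -1.91 to -0.23 log2 units, against a median of 0.02 over all genes. In edgeR's test 3 members had an unadjusted p under 0.05 against Col and 1 against fls2. The share of all genes below 0 or with such a p was not counted. Members such as HSP17.6II and HSP101 moved with the others across libraries (r = 0.92 and 0.89), so these signs are not separate observations. DESeq2 called 0 of 10 against Col and 0 against fls2. With replicate number as a block, an alternative given below, members did pass in both comparisons. HSP18.2, which encodes a cytosolic class I small heat shock protein, had 410, 416 and 388 CPM in Col and 248, 6.71 and 96.1 CPM in stp1/4/13. The groups did not overlap, but library 2 of stp1/4/13 stood far below the other two, and the difference of -1.82 ± 0.94 log2 units did not pass. HSP23.6 was spread likewise, with 243, 8.40 and 69.6 CPM in stp1/4/13 and 507, 435 and 231 CPM in Col. Without library 1 of stp1/4/13, HSP23.6 passed against Col at -3.42 log2 units (edgeR adjusted p = 0.0116), and 2 members passed against Col and 2 against fls2. Without library 3 of Col, 1 member passed against Col. The interaction of time and genotype between stp1/4/13 and Col passed in 0 of 10 members, none with an unadjusted p under 0.05 and none in DESeq2, where 0.028% of all genes passed.

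**Figure D4:**
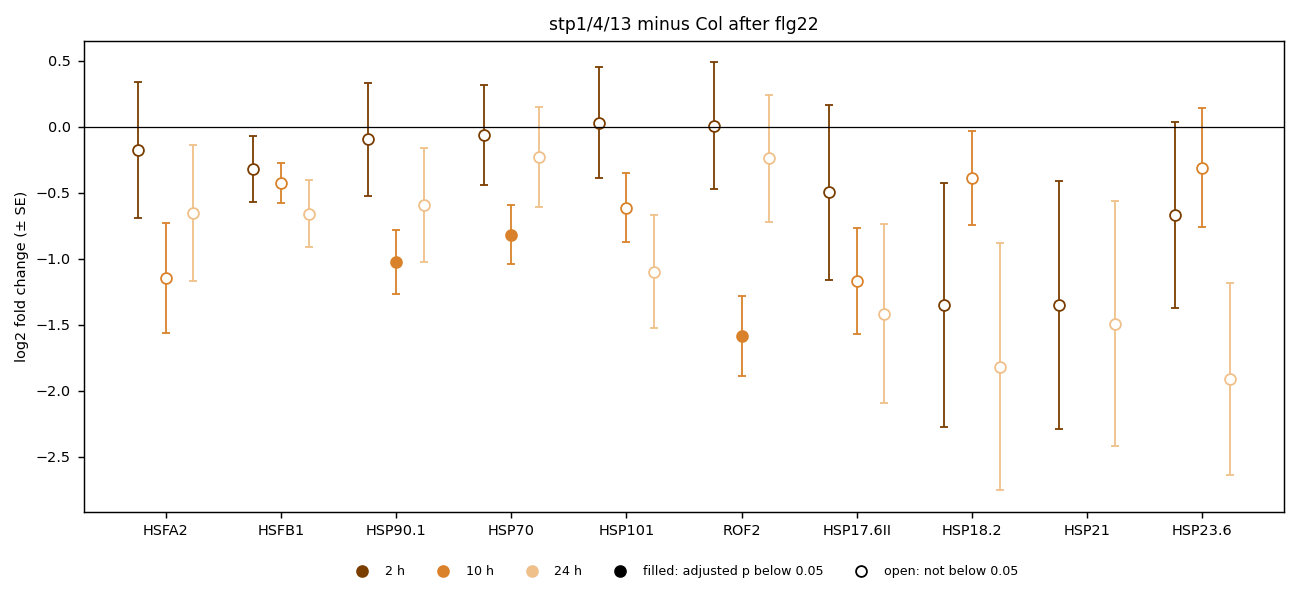
Log2 fold change of stp1/4/13 against Col with its standard error for each gene at 2, 10 and 24 h after flg22 (n = 3 libraries per group; filled points passed edgeR's test). The filled points are ROF2 (-1.58), HSP90.1 (-1.02) and HSP70 (-0.82), all at 10 h.

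In the sucrose and 2DG experiment HSFB1 was higher with 2DG, while ROF2, HSP21 and HSP23.6 were lower with 2DG than with 25 mM sucrose. HSFB1 had 435, 117 and 238 CPM in Suc_0mM, 620, 182 and 584 CPM in Suc_25mM and 1033, 1167 and 1265 CPM in 2DG_1mM. Every 2DG library was above the other 6. HSFB1 was 2.22 ± 0.47 log2 units above Suc_0mM (edgeR adjusted p = 0.00234) and 1.52 ± 0.46 above Suc_25mM (edgeR adjusted p = 0.0174). It was the 1 of 10 members that passed against Suc_0mM, where 49.2% of all genes did so. Against Suc_25mM 4 of 10 passed, where 49.3% did. The median over all genes was -0.21 against Suc_0mM and -0.23 log2 units against Suc_25mM, and members are to be read against that shift. Without library 1 of Suc_0mM 2 members passed against that group, and the count was 3 without its library 2.

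ROF2 had 734, 112 and 772 CPM in Suc_25mM and 35.7, 38.8 and 51.9 CPM in 2DG_1mM, -3.48 ± 1.09 log2 units apart (edgeR adjusted p = 0.0207). HSP23.6 had 555, 236 and 578 CPM in Suc_25mM and 45.7, 9.49 and 20.6 CPM in 2DG_1mM, -3.98 ± 1.28 apart (edgeR adjusted p = 0.0228). HSP21 had 85.8, 37.0 and 78.2 CPM in Suc_25mM and 4.22, 0 and 3.58 CPM in 2DG_1mM, -4.50 ± 1.43 apart (edgeR adjusted p = 0.0216). In all 3 genes the groups did not overlap. The 0 of HSP21 allows up to 0.300 CPM (3 counts). HSFB1 alone passed without library 2 of 2DG_1mM, and 2 members passed without library 3 of 2DG_1mM or without library 1 or 3 of Suc_25mM. With the groups taken from the treatment label the signs of all 4 turn, since the 2 groups change places.

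Between Suc_25mM and Suc_0mM no member passed, where 12.5% of all genes did so, 1 of 10 had an unadjusted p under 0.05, and DESeq2 called 0. Members did pass with replicate number as a block, an alternative given below. The spread within Suc_0mM was wide. HSP90.1 had 1887, 41.0 and 639 CPM there and 2952, 709 and 2824 CPM in Suc_25mM, and HSFA2 had 109, 0.691 and 138 CPM and 209, 28.5 and 181 CPM. Library 2 was the lowest of both groups in each of these genes, as in all 10 members. Among the 7 members with at least 10 counts in each Suc_0mM library, the highest library was a median of 46.0 times the lowest and up to 258 times, against a median of 1.66 over 16846 genes. In Suc_25mM the median was 4.18 over 10 members against 1.49 over all genes, and in 2DG_1mM it was 1.71 over 9 members against 1.62. HSP23.6 had 142, 0.345 and 11.6 CPM in Suc_0mM, all below Suc_25mM, and differed by 3.10 ± 1.23 log2 units (edgeR adjusted p = 0.131). Without library 1 of Suc_0mM, HSP18.2, HSP21 and HSP23.6 passed, at 4.27, 6.48 and 6.02 log2 units. No member passed without library 2 of Suc_0mM or without library 2 of Suc_25mM.

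Without all libraries numbered 2, a comparison added after the data were seen, 5 of 10 members passed between 2DG_1mM and Suc_0mM, where 7996 of 19951 genes did so, and 8 of 10 between 2DG_1mM and Suc_25mM, where 8148 did. The first of these shares is near that of all genes. Library 2 was the lowest of Suc_0mM and of Suc_25mM in all 10 members, so leaving it out narrows their spread. These counts and the p-values that follow come in part from that choice and are no separate support. HSFA2 then lay at -1.16 ± 0.33 log2 units against Suc_0mM (edgeR adjusted p = 0.0235) and at -1.65 ± 0.33 against Suc_25mM (edgeR adjusted p = 0.00592). HSP70 lay at -1.42 ± 0.25 and -1.07 ± 0.25 in the same comparisons. Green tissue marker sums ran from 23042 to 32769 CPM in Suc_0mM, from 9045 to 14381 CPM in Suc_25mM and from 4789 to 9773 CPM in 2DG_1mM. Root marker sums ran from 21.1 to 35.2 CPM, 29.98 to 48.9 CPM and 2.098 to 3.85 CPM in that order, and the part of either list was not tested.

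**Figure D5:**
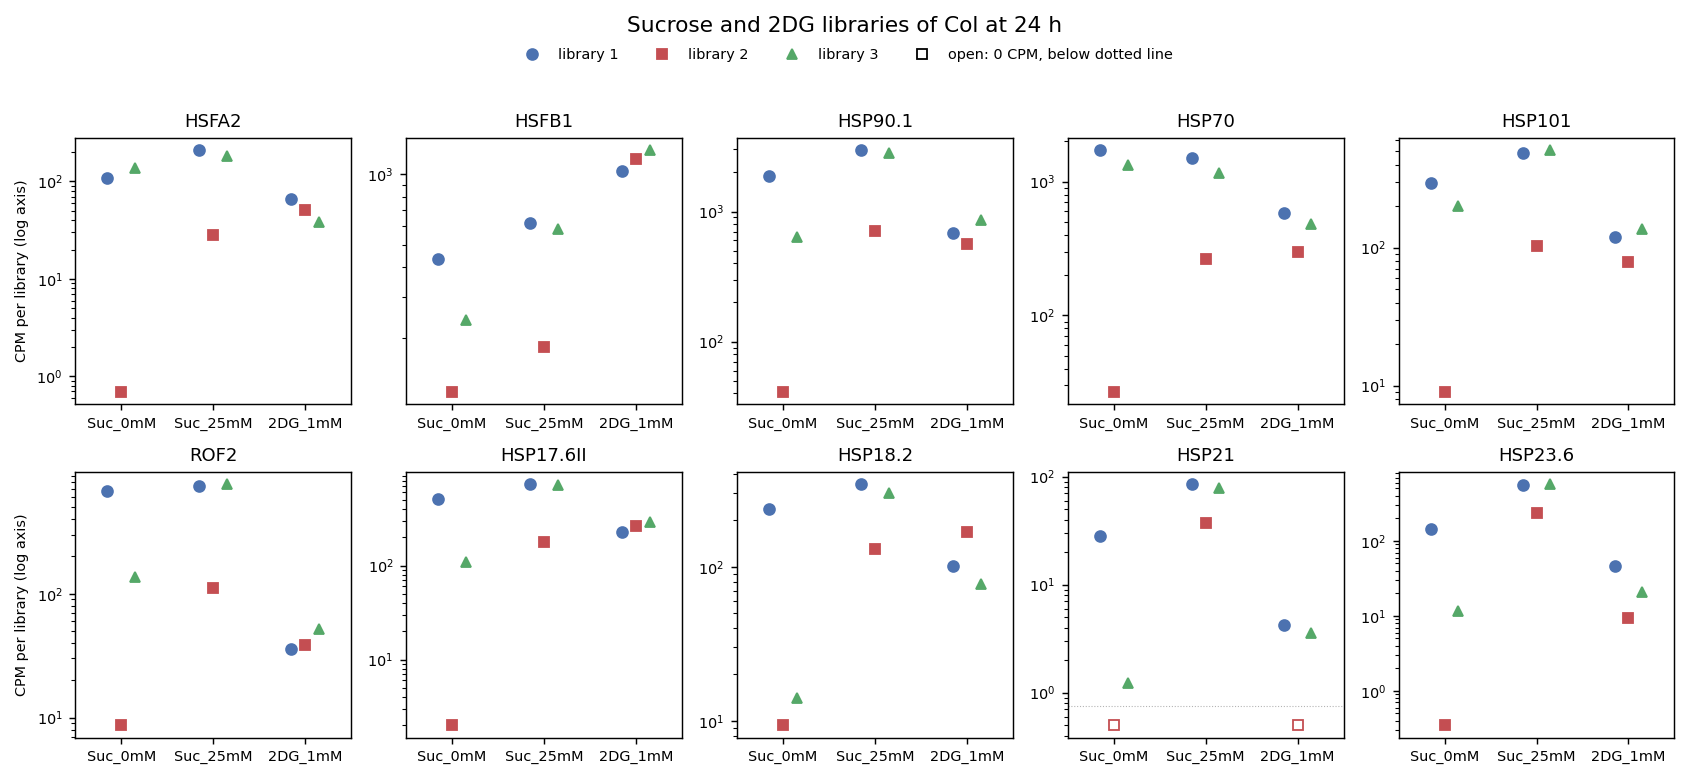
CPM (log axis) of each gene in the 3 libraries of Suc_0mM, Suc_25mM and 2DG_1mM, with a colour and symbol for each library number. Library 2 is the lowest point of Suc_0mM and of Suc_25mM in every panel, at 41.0 and 709 CPM for HSP90.1, and HSFB1 is highest in the 3 libraries of 2DG_1mM.

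Of the 70 other heat response genes 67 were tested in these groups. With 25 mM against 0 mM sucrose 10 were higher and 1 lower, where 12.5% of all genes passed in either direction. With 2DG against Suc_0mM 9 were higher and 10 lower, where 49.2% passed. With 2DG against Suc_25mM 6 were higher and 21 lower, where 49.3% passed. The heat shock factor HSFA8 was 2.28 ± 0.52 log2 units higher in Suc_25mM and 4.17 ± 0.54 higher in 2DG_1mM than in Suc_0mM. HSP60-2 was 2.45 ± 0.23 higher in Suc_25mM than in Suc_0mM. Of the HSP90, HSP100 and HSP60 genes 8 of 11 were lower with 2DG than with 25 mM sucrose, HSP60 by -2.95 ± 0.45 and HSP90.5 by -2.91 ± 0.49 log2 units.

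The likeness of the members to each other across libraries varied, and HSP21 was not measured here because it missed the filter at 10 h. On log2 CPM centred within the 3 sets of libraries fitted together, HSP17.6II had a Pearson r of 0.92 with the mean of the other members over the 36 libraries, HSP90.1 and HSP101 of 0.89, ROF2 of 0.81, HSP70 of 0.79 and HSFA2 of 0.77. HSP23.6 had 0.67 and HSP18.2 0.59. HSFB1 had 0.39, the lowest of the 9 members that passed the filter on low counts in every fit. HSP101 was the member most like HSFA2, with an r of 0.89. The libraries share groups and tables, and these values carry no test. Of 18812 other genes, AT1G07400, annotated as an HSP20-like chaperone, was most like the mean of the members (r = 0.96), followed by HOP3 (0.96), HSP17.6A (0.94), AT1G59860 (0.92), AT2G29500 (0.88), AT1G53540 (0.88), AT2G20560 (0.88) and AT1G30070 (0.87). To HSFA2 alone the nearest were AT1G59860 (0.89), AT3G14200 (0.87), AT1G54050 (0.86), AT1G07400 (0.86) and AT2G20560 (0.84).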

How the data were processed

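BrAD-seq, a strand-specific method that reads transcripts near their 3′ end, was used per the labels' protocols. The submitters' processing notes name fastp 0.19.7, STAR 2.6.1b, featureCounts 1.6.0 and the build TAIR10. Both tables deposited by the authors hold raw counts per locus as whole numbers. The strand setting of the counting is not given in the sources used here. The tables held no columns of other samples, and no 2 libraries of a group held identical counts.

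CPM was computed from these counts over all loci. In R 4.3.3, edgeR 4.0.16 (TMM scaling, filterByExpr, quasi-likelihood test, two-sided, Benjamini-Hochberg adjustment over all genes tested, threshold 0.05) was fitted in 3 parts (18 libraries at 2 h and 24 h, 9 at 10 h, 9 with sucrose or 2DG) with group means as the only terms, and tested on simulated data. The tests gave 15 comparisons of groups and 2 interactions. The fits tested 21463, 19561 and 19727 genes. Likeness used log2 CPM with a prior count of 2. Alternatives were DESeq2 1.42.0, its size factors in edgeR, no filter, only the compared groups, the replicate block, each library and all libraries numbered 2 left out (the last chosen after seeing the data), and groups from the treatment label. The design text names 3 independent trials, and the labels do not say that equal numbers mark one trial, so p-values measure the spread between these libraries. Counts limit precision only for low levels such as those of HSP21.

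All 10 members were named in RefSeq. The text always names the 10 members and, of the lists, up to 3 genes per list and comparison that passed with the largest change and a mean log2 CPM of at least 0, of which only some are printed. The members, lists, comparisons and motifs were chosen with earlier results of these data known.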

Additional observations from a re-analysis of the deposited data

Results flagged for a closer look

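The change from 2 h to 24 h after flg22 differed between Col and fls2 by a test of the difference itself for HSFB1 (-1.61 log2 units, edgeR adjusted p = 0.00712) and HSP90.1 (-1.96 log2 units, edgeR adjusted p = 0.0476). The HSP90.1 call was lost in most fits with 1 library left out, and neither interaction passed without all libraries numbered 2. HSFB1 moved in opposite directions over this time with no overlap between the times, at 0.75 log2 units in fls2, -0.86 in Col and -1.20 in stp1/4/13. Its rise in fls2 had an edgeR adjusted p of 0.0450. In fls2, 0 members passed over time without library 2 or 3 at 2 h or without library 1 at 24 h. The difference between stp1/4/13 and fls2 over time was not tested.

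ROF2 and HSP70 stood on opposite sides of fls2 at 2 h and 10 h in stp1/4/13. ROF2 differed by 1.57 log2 units at 2 h, a call lost without library 1 of stp1/4/13 or library 1 or 2 of fls2 (edgeR adjusted p up to 0.117), and by -1.44 at 10 h, and HSP70 by 1.01 at 2 h (edgeR adjusted p = 0.0592) and by -0.73 at 10 h, a call lost without library 3 of stp1/4/13 (0.0676). Every library of stp1/4/13 lay above fls2 at 2 h and below it at 10 h for each gene. The difference between the times was not tested, because the times come from separate tables.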

How the results depend on the processing

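Of 219 counts of members passed, over 17 comparisons and all alternatives, 164 stayed within the tolerance of 1.5 times, 34 were lower and 21 higher, and of 2154 values of single members 4 reversed. With DESeq2 size factors all 17 counts stayed within it. Where a count moved, the cause was not tested, beyond the smaller number of libraries when some were left out.

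All libraries numbered 2 were left out in an alternative chosen after seeing the data. There, 3 members passed for Col against fls2 at 2 h, where 4050 of 21491 genes did so. For stp1/4/13 against fls2 at 2 h 2 passed, where 2629 genes did. At 24 h 0 passed for Col against fls2 and 1 for stp1/4/13 against fls2, where 1191 and 1536 genes did so. For 2DG_1mM 5 passed against Suc_0mM and 8 against Suc_25mM, where 7996 and 8148 of 19951 genes did so. Over time 0 passed in Col, 3 in stp1/4/13, 0 in fls2 and 0 for the Col and fls2 interaction. Of 21491 genes, 2480, 2782, 0 and 479 passed in that order. Without the filter on low counts 5 passed for Col against fls2 at 10 h, where 10211 of 25003 genes did so. For stp1/4/13 against Col at 10 h 5 passed, where 2825 genes did. For 2DG_1mM against Suc_0mM 2 passed, where 9685 of 25908 genes did. With DESeq2 5 passed for stp1/4/13 against Col at 10 h, where 2820 of 25003 genes did so. It called 2 for 2DG_1mM against Suc_25mM, where 10847 of 25908 genes passed. Fitted on the compared groups alone, 6 passed for stp1/4/13 against Col at 10 h, where 3404 of 18601 genes did so. With groups from the treatment label 0 passed for 2DG_1mM and 1 for Suc_25mM against Suc_0mM, where 2463 and 9697 of 19727 genes did so. The difference of 2DG_1mM from Suc_25mM then reversed to -1.52 (HSFB1), 3.48 (ROF2), 4.495 (HSP21) and 3.98 (HSP23.6) log2 units.

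With the replicate block, 5 members passed for stp1/4/13 against Col at 24 h, where 3227 of 21463 genes did so. These were HSP101, HSFB1, HSP17.6II, HSP18.2 and HSP23.6 (edgeR adjusted p of 0.0122 to 0.0341). Against fls2 at 24 h 4 passed (these without HSFB1), where 5069 genes did. For Suc_25mM against Suc_0mM 2 passed, where 2536 of 20570 genes did. Over time in fls2 5 passed, where 5537 of 21463 did, and for the Col and fls2 interaction 4, where 2908 did. HSFA2 (adjusted p = 0.00657) and HSP17.6II (0.0210) then passed for Col against fls2 at 2 h. The labels do not say that numbers pair libraries. Same-numbered libraries of one time correlated over 0.1 in 14 of 18 pairs at 2 h and 24 h (0.021 to 0.53), 0 of 9 at 10 h and 3 of 9 with sucrose or 2DG.

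With 1 library left out, counts ran from 3 to 4 (Col against fls2), 0 to 0 (stp1/4/13 against Col) and 3 to 5 (stp1/4/13 against fls2) at 2 h. At 10 h they ran from 3 to 5, 1 to 4 and 3 to 6 in that order, and at 24 h from 1 to 1, 0 to 2 and 0 to 2. They ran from 1 to 3 for 2DG_1mM and 0 to 3 for Suc_25mM against Suc_0mM, and from 1 to 4 for 2DG_1mM against Suc_25mM. Over time they ran from 1 to 4 in Col, 3 to 6 in stp1/4/13 and 0 to 2 in fls2, and from 1 to 3 and 0 to 0 for the interactions with fls2 and stp1/4/13. Over all genes, stp1/4/13 against Col gave 47 calls at 2 h and 224 with DESeq2, and at 24 h 1934, or 184 on the compared groups alone. Without all libraries numbered 2 the calls over all genes fell to 4 and 22 in these comparisons and from 4245 to 0 over time in fls2. The median over all genes for 2DG_1mM against Suc_0mM was -0.21 and, without the filter, -0.11 log2 units.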
